A study of Homo sapiens with 14 samples.

Results

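RAB genes encode the RAB GTPases, small proteins that switch between a GDP-bound and a GTP-bound form on the membranes of the cell. They were taken as all rows of the authors' deposited tables whose gene name was RAB followed by a number, with at most 1 letter and 1 digit after it, so that partner genes such as RAB11FIP1 were left out. This gave 41 genes of the 12202 listed in either table. All 41 had a row among the 11261 genes of the siRNA table, and 40 among the 11835 genes of the deletion table, in which RAB5B had no row. RAB7L1 is the older symbol of RAB29 and is written here as in the tables. GENCODE release 29 names 22 further protein-coding genes of this form, among them RAB3A, RAB24, RAB34 and RAB38, which had no row in either table and were not analysed here.

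The 14 RNA libraries came from teloHAEC, an endothelial line of the human aorta that telomerase has made immortal. For the siRNA arm, cells were transfected with siRNA (4 libraries) against CALCRL, which encodes the calcitonin receptor-like receptor, or with scrambled siRNA (4 libraries), and lysed after 24 hours. In the deletion arm, cells were electroporated with Cas9 complexes whose guides flank an enhancer of CALCRL (3 libraries), or with a Cas9 complex targeting HPRT as the control (3 libraries), and collected after 2 days. The deletion was made in a transfected population with no selection of clones named in the labels, and the arms share no control libraries. All cells were of 1 line, the labels do not say whether libraries of a group came from separate cultures, and the p-values then measure only the spread between these libraries.

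Each RAB protein marks a particular membrane compartment and, in its GTP-bound form, recruits the effectors that bud, move, tether and fuse vesicles there. Exchange factors load it with GTP, GTPase-activating proteins return it to the GDP-bound form, and escort and GDI proteins carry its prenylated form between membranes and cytosol. In endothelial cells, RAB proteins serve the exit of receptors and adhesion proteins from the endoplasmic reticulum, the sorting of internalised receptors, and the release of Weibel-Palade bodies, the storage organelles of von Willebrand factor, in which RAB27A and RAB3D are known to act.

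The tables give 1 mean normalised count per gene over all libraries of an arm, the log2 ratio of treated to control with its standard error (SE), and an adjusted p-value, and nothing per library. A gene was called, and is said to have risen or fallen, when the authors' deposited table gave an adjusted p-value under 0.05. Group means were derived here from that mean and the ratio. Over all genes the median SE was 0.17 under siRNA and 0.41 after the deletion, so that the deletion arm was the less precise one. CALCRL, measured to check the treatments, was at 34.0% of its control under siRNA (95% interval 27.1% to 42.7%) and at 36.2% after the deletion (20.2% to 64.7%). Of 10 endothelial marker genes 9 had a row in each table, with 0 called under siRNA and CDH5 and KDR called lower after the deletion. Of the epithelial list KRT8 and KRT18 had rows, with KRT18 called higher after the deletion, and of the smooth muscle and fibroblast list only ACTA2, while 0 of 6 blood markers had a row. The part of these marker changes in the results was not tested, and in bulk RNA fewer cells of a kind and less RNA per cell cannot be told apart.

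RAB transcripts ranged in the authors' deposited tables from 12.4 (RAB20) to 2302 (RAB2A) mean normalised counts in the siRNA arm and from 12.8 to 2906, for the same 2 genes, in the deletion arm. Counts were not divided by length, because the libraries read only near the polyadenylated end of each transcript. After RAB2A, which acts between the endoplasmic reticulum and the Golgi, the highest in the siRNA table were RAB11A (1385), RAB7A (1165), RAB31 (1011) and RAB10 (863). RAB11A (1595), RAB3B (1568), RAB31 (1497) and RAB5C (1411) followed RAB2A in the deletion table. These genes cover recycling endosomes (RAB11A), late endosomes and lysosomes (RAB7A), early endosomes (RAB5C), transport from the Golgi to endosomes (RAB31), delivery to the plasma membrane (RAB10) and regulated secretion (RAB3B).

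Under CALCRL siRNA, 8 of 41 RAB genes were called (19.5%), against 3.46% of all genes tested. RAB1A, RAB14, RAB30, RAB33B, RAB32 and RAB8B fell, which is 6 of 41 where 2.42% of all genes were lower, and RAB36 and RAB31 rose, where 1.05% of all genes were higher. The median log2 fold change over the 41 was 0.07, close to the median of 0.00 over all genes, and 22 RAB genes were above 0 and 19 below it. RAB1A, RAB14, RAB30 and RAB33B fell and RAB36 rose by about 1 log2 unit, and RAB32, RAB8B and RAB31 moved by less than 0.4 of one. At an adjusted p-value under 0.01, 4 were called, against 2.16% of all genes, and read against a Student t distribution with 6 degrees of freedom, 0 were, where 5 of all 11261 genes were. Because the family was chosen with RAB1A's decrease known, its values are a description.

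**Figure D1:**
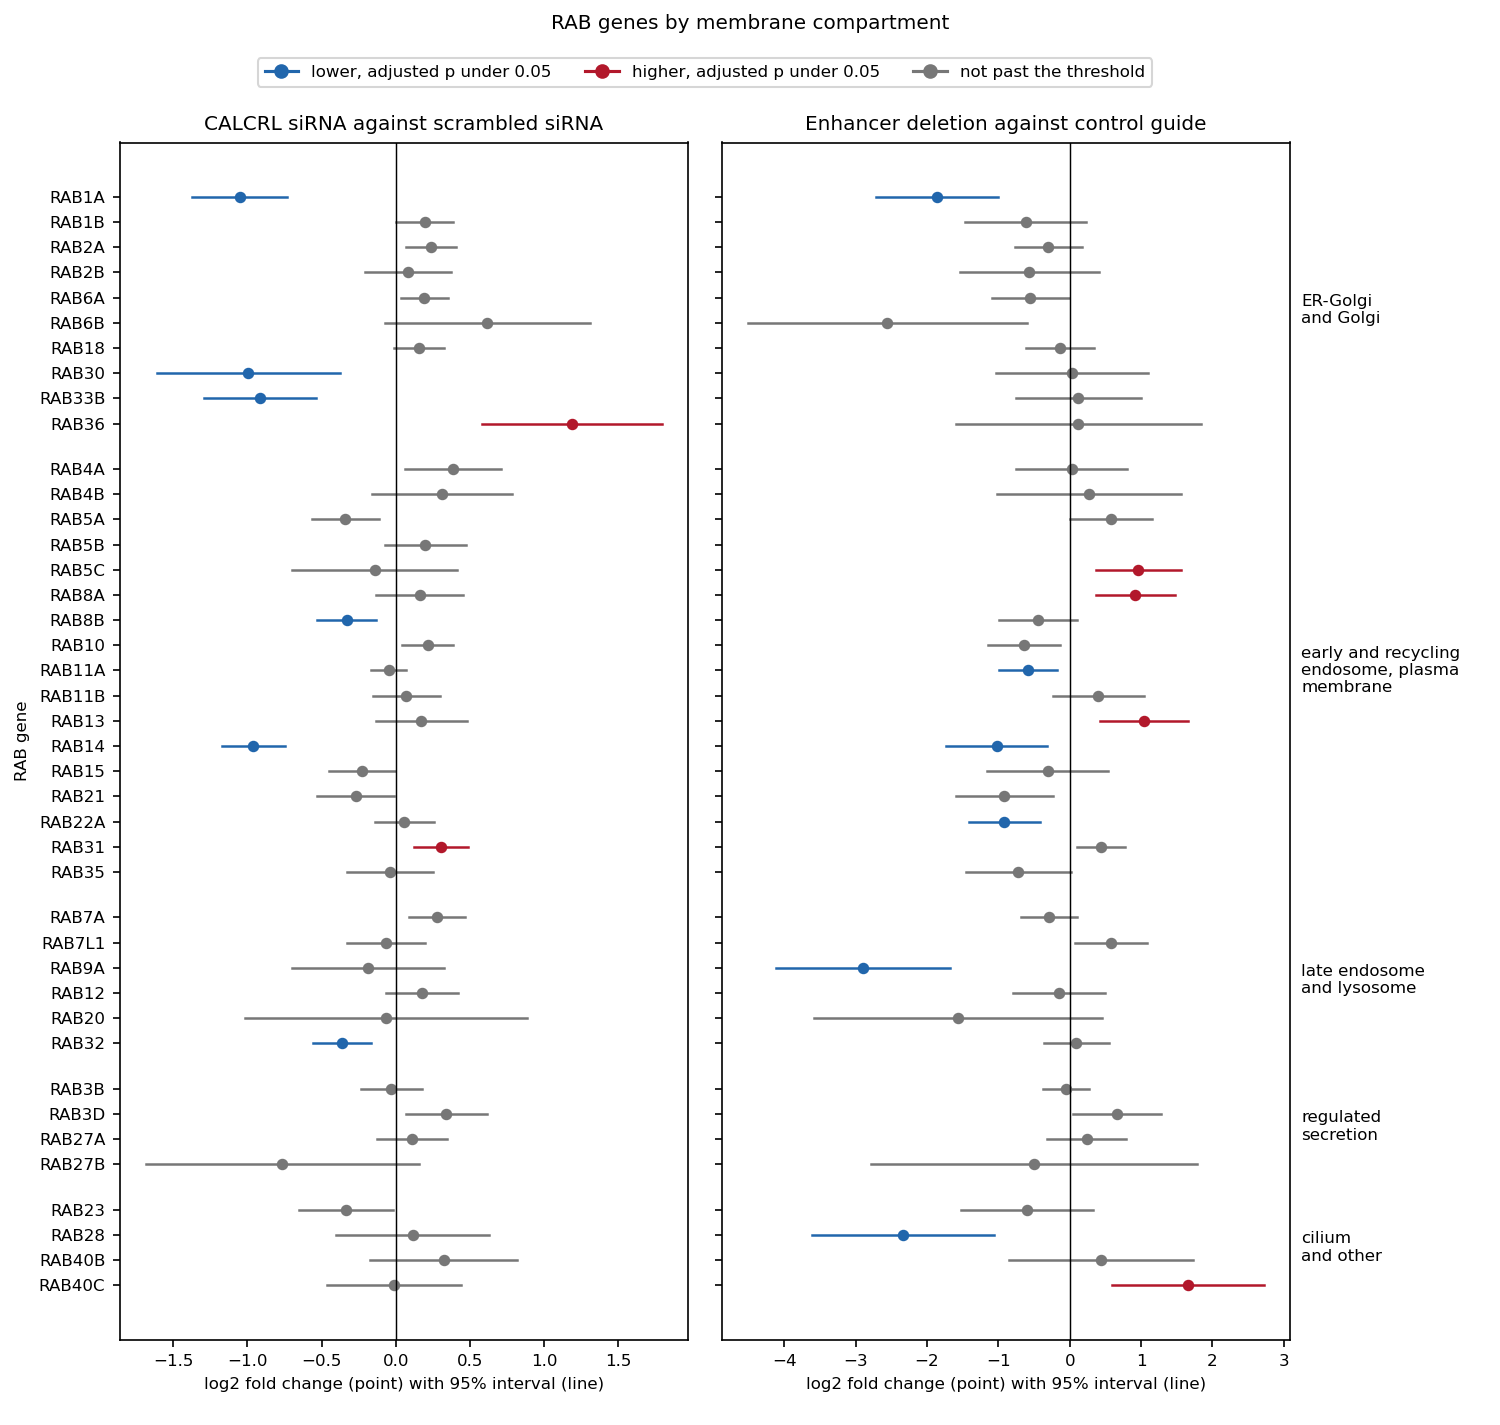
The log2 fold change of each RAB gene (point) with its 95% interval (line) is plotted by membrane compartment, for CALCRL siRNA against scrambled siRNA on the left and for the enhancer deletion against the control guide on the right, on axes of different width. RAB1A and RAB14 are the only members in blue (lower, adjusted p-value under 0.05) on both sides, and the intervals on the right are wider.

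Among the 10 RAB genes of the endoplasmic reticulum and Golgi, 3 fell and 1 rose under siRNA, where 2.42% of all genes fell and 1.05% rose. The median log2 fold change of the 10 was 0.17. Differences between compartments were not tested. RAB1A (ENSG00000138069), which drives transport from the endoplasmic reticulum to the Golgi, had a derived mean of 947 normalised counts in the scrambled control and 457 under siRNA. Its log2 fold change in the authors' deposited table was -1.05 (SE 0.16, adjusted p-value 3.58e-08), which is 48.2% of the control (95% interval 38.6% to 60.2%). Its close copy RAB1B, with the same function, had derived means of 435 and 498 and a log2 fold change of 0.19 (SE 0.10, adjusted p-value 0.415) by the authors' deposited table. The copies were thus on opposite sides of 0, with only RAB1A called; the difference between them, measured in the same libraries, was not tested. RAB33B, a Golgi protein that also binds the autophagy factor ATG16L1, went from a derived mean of 93.2 to 49.4 normalised counts. The authors' deposited table gave it -0.92 on the log2 scale (SE 0.19, adjusted p-value 0.000199). RAB30, another Golgi protein, was less abundant, at 42.8 and 21.5 derived counts, with -0.99 (SE 0.32) and an adjusted p-value of 0.0486, the called member nearest to the threshold. RAB36, a little-studied Golgi-associated member, rose from 10.8 to 24.6 derived counts, a log2 fold change of 1.19 (SE 0.31, adjusted p-value 0.00630) by the authors' deposited table, and was the least abundant of the called genes. RAB2A (0.24, SE 0.09), RAB6A (0.19, SE 0.08) and RAB18 (0.16, SE 0.09), which serve the Golgi and lipid droplets, had adjusted p-values from 0.114 to 0.481 in the authors' deposited table.

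Of 17 RAB genes of early and recycling endosomes and of delivery to the plasma membrane, RAB14 and RAB8B fell and RAB31 rose under siRNA. Over all genes, 3.46% were called in either direction. RAB14, which works between the trans-Golgi and endosomes, had a derived mean of 937 normalised counts in the control and 482 under siRNA. Its log2 fold change of -0.96 (SE 0.11, adjusted p-value 6.75e-16) by the authors' deposited table was the firmest of the family, and 10 of the 11261 genes, RAB14 included, had a Wald statistic as low. RAB8B, of delivery to the plasma membrane, moved less, from 261 to 208 derived counts (-0.33, SE 0.10, adjusted p-value 0.0370, by the authors' deposited table). For its copy RAB8A the authors' deposited table gave 0.16 (SE 0.15, adjusted p-value 0.812). RAB31 went from 905 to 1118 derived counts, a log2 fold change of 0.30 (SE 0.09, adjusted p-value 0.0376) by the authors' deposited table. RAB5A, of early endosomes, stood just outside the threshold at -0.34 (SE 0.11, adjusted p-value 0.0762) by the authors' deposited table. Its copies RAB5B (0.20, SE 0.14) and RAB5C (-0.14, SE 0.28) were not called.

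RAB32, which acts on lysosome-related organelles and mitochondria, was the only called gene of the 6 in the late endosome and lysosome group, with 389 and 303 derived counts and a log2 fold change of -0.36 (SE 0.10, adjusted p-value 0.0125) by the authors' deposited table. RAB7A, the late endosome RAB, was at 0.28 (SE 0.10, adjusted p-value 0.0951) there. In the regulated secretion group 0 of 4 were called by the authors' DESeq2 test, and RAB3D alone had an unadjusted p-value under 0.05. Of all genes, 3.46% were called and 12% had an unadjusted p-value under 0.05. RAB27A and RAB3D, named above for Weibel-Palade bodies, were at 0.11 (SE 0.12) and 0.34 (SE 0.14) by the authors' deposited table. Of the 4 genes of the group, 2 were above 0 and 2 below it. RAB27B, at 12.8 mean normalised counts, had the largest change not called, -0.76 (SE 0.47), followed by RAB6B (0.62, SE 0.35) and RAB4A (0.38, SE 0.16), all in the authors' deposited table. The cilium and remaining group also had 0 of 4 called, with 1, RAB23, at an unadjusted p-value under 0.05 (-0.33, SE 0.16, by the authors' deposited table).

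**Figure D2:**
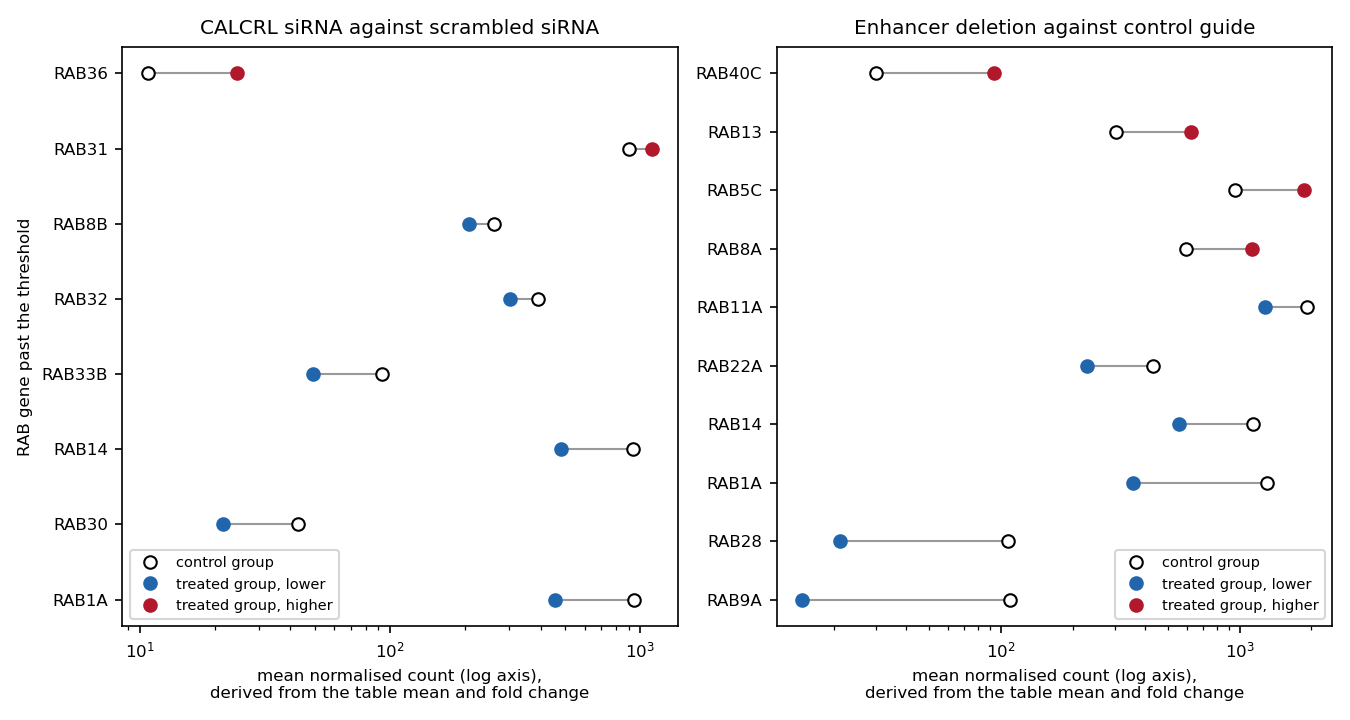
Derived group means in normalised counts, on a log axis, are plotted for the RAB genes called in the siRNA arm (left) and the deletion arm (right), with the control group as an open circle and the treated group filled. RAB1A goes from 947 to 457 on the left and from 1302 to 357 on the right, while RAB9A ends at 14.6.

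The 3' UTRs of the RAB genes were searched for the 7-base word GTAACAA, because earlier results of these data had singled it out as the word most tied to lower values under this siRNA; it was chosen on the same table, so that what follows is a description. The word was present, on the transcript strand, in 11 of 41 RAB genes (26.8%) and in 10.2% of the 10631 genes of the siRNA table with an annotated 3' UTR. RAB genes with it had a median 3' UTR of 4151 bases, those without it of 2218, and all genes of 1403, and a longer UTR has more room for any word. Sites of the 5 called carriers are shown, 5′ to 3′ from the GENCODE release 29 transcript with the longest 3' UTR, with the word in capitals and its flanks in lower case.
RAB1A: cacactatGTAACAAaacaactg
RAB14: catttgatGTAACAAaatgctat
RAB33B site 1: tgatgggtGTAACAAcatttttt
RAB33B site 2: tctcatttGTAACAAtttgtttt
RAB30 site 1: gaccaacaGTAACAAtcattgtt
RAB30 site 2: ttttatttGTAACAAttttttaa
RAB8B: tctggatgGTAACAAagtacctt
In GRCh38 the printed stretches lie at chr2:65087916-65087938 (RAB1A, minus strand), chr9:121179339-121179361 (RAB14, minus), chr4:139475211-139475233 and chr4:139475456-139475478 (RAB33B, plus), chr11:82981574-82981596 and chr11:82973198-82973220 (RAB30, minus) and chr15:63265573-63265595 (RAB8B, plus), each within 1 exon.

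Of the 6 RAB genes that fell under siRNA, 5 carried the word and RAB32 did not, and neither of the 2 that rose carried it. Over all genes with an annotated 3' UTR, 155 of the 266 that fell carried it. The 11 carriers had a median log2 fold change of -0.34 under siRNA, with 10 of 11 below 0, and the 30 other RAB genes a median of 0.16. For genes outside the family that carry the word (1074 genes), the median was -0.12, with 741 of them below 0. After the deletion, the 11 carriers had a median of -0.45, with 7 below 0, and the 29 other RAB genes one of -0.15. With the trend on GC content over all genes removed, these medians were -0.17 and -0.22, and under siRNA -0.32 and 0.15. Carriers outside the family were at -0.14 after the deletion, and at 0.06 with that trend removed. The difference between carriers and other genes was not tested. Under siRNA, presence of the word did not go with a low value in each case. RAB11A, which is needed for recycling endosomes, carries 1 site, 749 bases before the transcript end, and was at -0.05 (SE 0.06) by the authors' deposited table:
RAB11A: ggtcgatgGTAACAAtaaagtga
RAB3B was at -0.03 (SE 0.11) and RAB8A at 0.16 in the authors' deposited table, and both carry the word; the RAB8A site ends 2 bases before the annotated transcript end. RAB5A, RAB21 (-0.27, SE 0.13) and RAB27B are carriers whose values were below 0 in the authors' deposited table and were not called.

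**Figure D3:**
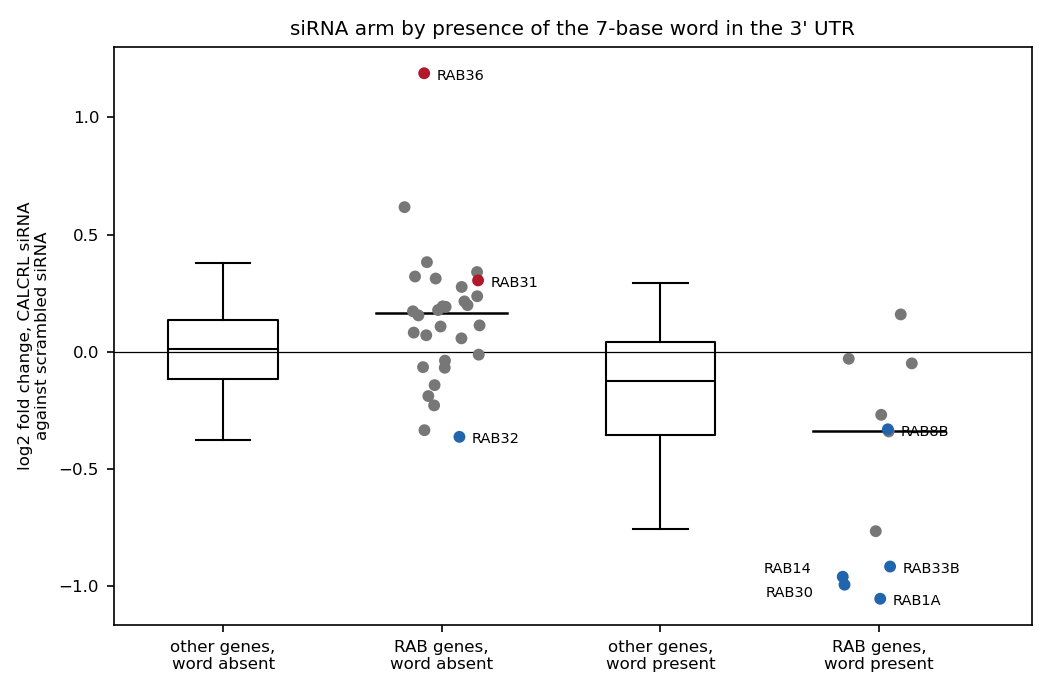
The log2 fold change under CALCRL siRNA is plotted for genes with an annotated 3' UTR, split by presence of the 7-base word; boxes give the median, the quartiles and the 5th and 95th percentiles of genes outside the family, points are RAB genes (blue lower, red higher, grey not called) and the bar is their median. The median of the RAB genes with the word is -0.34 and that of the others 0.16.

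After the enhancer deletion, 10 of 40 RAB genes were called (25.0%), against 15.8% of all genes tested. RAB1A, RAB9A, RAB28, RAB22A, RAB14 and RAB11A fell, 6 of 40 where 8.44% of all genes were lower, and RAB40C, RAB13, RAB5C and RAB8A rose, 4 of 40 where 7.40% were higher. The median log2 fold change over the 40 was -0.22, against 0.00 over all genes, with 23 below 0 and 17 above. The changes were larger and less precise than under siRNA, with a median SE of 0.34 over the RAB genes. With the Wald statistics divided by their robust standard deviation over all genes (1.88), or read against a Student t distribution with 4 degrees of freedom, 0 of the 40 remained called, with 2 and 10 at an unadjusted p-value under 0.05; among all genes tested, 0 were then called. At an adjusted p-value under 0.01, 4 were called, against 6.64% of all genes. The decrease of RAB1A in this arm was also known when the family was chosen, so these counts are a description.

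RAB1A fell in the endoplasmic reticulum and Golgi group from a derived mean of 1302 normalised counts in the control to 357, which is 27.4% of the control (95% interval 15.2% to 49.7%). Its log2 fold change in the authors' deposited table was -1.87 (SE 0.44, adjusted p-value 0.000995). It was the only call among 10, where 15.8% of all genes were called. RAB1B, at 494 and 322 derived counts, was at -0.62 (SE 0.43, adjusted p-value 0.343) by the authors' deposited table. RAB6B, a Golgi protein best known from neurons, had the largest change not called, -2.56 (SE 1.00, adjusted p-value 0.0595) by the authors' deposited table, at a mean of 15.2 counts. RAB33B and RAB30, which fell under siRNA, were at 0.12 (SE 0.45) and 0.03 (SE 0.54) by the authors' deposited table.

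The endosome and plasma membrane group held 6 calls among 16, with 3 in each direction, where 15.8% of all genes were called. Differences between compartments were not tested in this arm either. RAB14 went from 1132 to 556 derived counts, a log2 fold change of -1.03 (SE 0.36, adjusted p-value 0.0331) by the authors' deposited table. RAB22A, of early endosomes and recycling, went from 433 to 230 (-0.92, SE 0.26, adjusted p-value 0.00659, by the authors' deposited table). RAB11A went from 1912 to 1279 derived counts and was the called member nearest to the threshold (-0.58, SE 0.21, adjusted p-value 0.0379). RAB21, which guides integrin uptake, was just outside it at -0.91 (SE 0.35, adjusted p-value 0.0505) by the authors' deposited table. Among those that rose, RAB13, which acts at cell junctions, went from 304 to 625 derived counts (1.04, SE 0.31, adjusted p-value 0.0131, by the authors' deposited table). RAB5C rose from 957 to 1865 (0.96, SE 0.30, adjusted p-value 0.0169), and RAB8A from 597 to 1130 (0.92, SE 0.28, adjusted p-value 0.0146), both in the authors' deposited table. For the copies RAB8B and RAB11B the authors' deposited table gave -0.45 (SE 0.28) and 0.40 (SE 0.32), neither called. Under siRNA, RAB5C had a SE 2.74 times that of other genes of its mean count, the only RAB gene above 2 times, where 1.96% of genes were. The genes of the whole table above that limit had a median log2 fold change of -2.01 after the deletion, to which RAB5C, higher, was an exception.

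RAB9A, which returns receptors from late endosomes to the trans-Golgi, had the largest decrease of the family, from a derived mean of 109 normalised counts to 14.6, or 13.4% of the control (95% interval 5.76% to 31.2%). The authors' deposited table gave it -2.90 (SE 0.62, adjusted p-value 0.000265). It was the only call among 6 genes of the late endosome and lysosome group, where 15.8% of all genes were called. RAB28, linked to the cilium and the retina, went from 106 to 21.0 derived counts, with a log2 fold change of -2.34 (SE 0.65, adjusted p-value 0.00643) by the authors' deposited table. RAB40C, which joins a ubiquitin ligase, rose from 29.7 to 93.8 (1.66, SE 0.54, adjusted p-value 0.0230, by the authors' deposited table). RAB20, of phagosomes and endosomes, was at -1.56 (SE 1.03) by the authors' deposited table and had, at 12.8, the lowest mean count of the family there. In the regulated secretion group 0 of 4 were called by the authors' DESeq2 test, with 1, RAB3D (0.66, SE 0.32, by the authors' deposited table), at an unadjusted p-value under 0.05. Of all genes, 29.7% had an unadjusted p-value under 0.05 in this arm. Outside RAB5C, the highest SE ratios under siRNA were 1.56 for RAB1A, 1.40 for RAB13, 1.36 for RAB9A, 1.35 for RAB28 and 1.30 for RAB8A, of which RAB13 and RAB8A rose after the deletion, against a median of 0.97 over the RAB genes. The highest SE ratios in the deletion arm itself were 1.75 for RAB1A, 1.53 for RAB1B and 1.44 for RAB14.

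The called RAB genes of the deletion arm differed in base composition by direction, along a trend also present over all genes. GC content over the last 500 bases of the transcript was 47.4% for RAB13, 54.4% for RAB5C, 56.2% for RAB8A and 61.6% for RAB40C, the 4 that rose. It lay between 31.0% (RAB1A) and 35.6% (RAB14) for the 6 that fell. With members not called included, 8 of the 19 genes above the RAB median of 39% were below 0, and 15 of the 21 others. GC content of the called genes of the whole table was not compared. Across the 40 genes, GC content and the log2 fold change after the deletion had Spearman's rho of 0.339 and Pearson's r of 0.349, and rho was 0.309 over all genes; the points share the same 6 libraries. Under siRNA rho was 0.344 over the 41 members and 0.0818 over all genes. With the trend on GC content over all genes removed, 12.2% of all genes were called (3.29% under siRNA), and RAB1A (-1.61, adjusted p-value 0.00612), RAB9A (-2.67, 0.000986), RAB28 (-2.10, 0.0179) and RAB13 (0.96, 0.0271) remained called. The other 6 were then at adjusted p-values from 0.0538 (RAB22A) to 0.272 (RAB11A). RAB14 was at -0.83 (0.107) and no longer called. RAB31, RAB5A, RAB7L1 and RAB35 came under the threshold in their place, with the first 3 higher and RAB35 lower. CALCRL, the check of the treatment, also lost its call after the deletion with this trend removed (-1.05, adjusted p-value 0.0827). The members called in both arms were then RAB1A, lower in each, and RAB31, higher in each (0.30 under siRNA, adjusted p-value 0.0416, and 0.53 after the deletion, 0.0276). The share of all genes called in both arms was not computed for this setting. The decrease of RAB1A was known when the family was chosen.

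**Figure D4:**
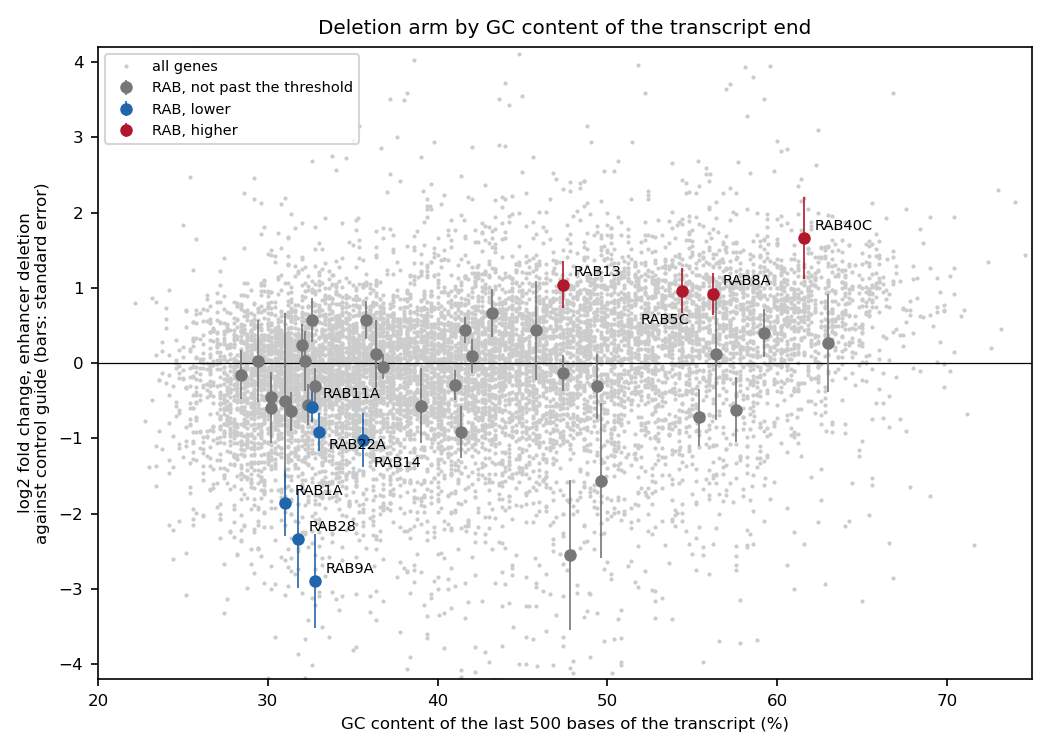
The log2 fold change after the enhancer deletion is plotted against the GC content of the last 500 bases of the transcript, in percent, for all genes (grey dots) and RAB genes (large points with SE bars). The 6 RAB genes that fell lie at 31.0% to 35.6% GC and the 4 that rose at 47.4% to 61.6%; 75 of 11624 genes lie outside the axes.

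RAB1A and RAB14 were called in both arms, lower in each, which is 2 of the 8 calls under siRNA and 2 of the 10 calls after the deletion. Among all genes tested in both arms, 0.432% were called in both and 0.174% lower in both. The family was chosen with the decrease of RAB1A in both arms known. Its part in this count was thus fixed in advance, and the count is a description. RAB1A was at -1.05 under siRNA and -1.87 after the deletion, and the difference of 0.81 (SE 0.47) was within its error (95% interval -0.10 to 1.73, adjusted p-value 0.239). For RAB14 the difference was 0.07 (SE 0.37, 95% interval -0.67 to 0.80, adjusted p-value 0.931). Neither interval shows that the effects were equal. Of the 40 genes in both tables, 12 were below 0 in both arms, 10 above 0 in both and 18 on opposite sides.

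The change differed between the arms in 7 of 40 RAB genes (17.5%) by a test of the difference with Benjamini-Hochberg adjustment over 10891 genes, against 13.7% of all genes tested. RAB6B, RAB9A, RAB28, RAB22A and RAB10 had the higher log2 fold change under siRNA, as 7.22% of all genes did. RAB40C and RAB5A had the higher one after the deletion, as 6.49% did. RAB5A, RAB6B and RAB10, the last of exocytosis and GLUT4 transport, were called in neither arm alone. RAB5A was at -0.34 under siRNA and 0.58 (SE 0.29) after the deletion, by the authors' deposited tables, a difference of -0.91 (SE 0.31, adjusted p-value 0.0329). RAB10 was at 0.22 (SE 0.09) and -0.64 (SE 0.26) there, a difference of 0.86 (SE 0.27, adjusted p-value 0.0205). The arms also differ in delivery, time and control, and these cannot be told apart. Under the Student t reference, or with the statistics divided by their robust standard deviation, 0 of the 40 differed, and 0 of all 10891 genes.

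**Figure D5:**
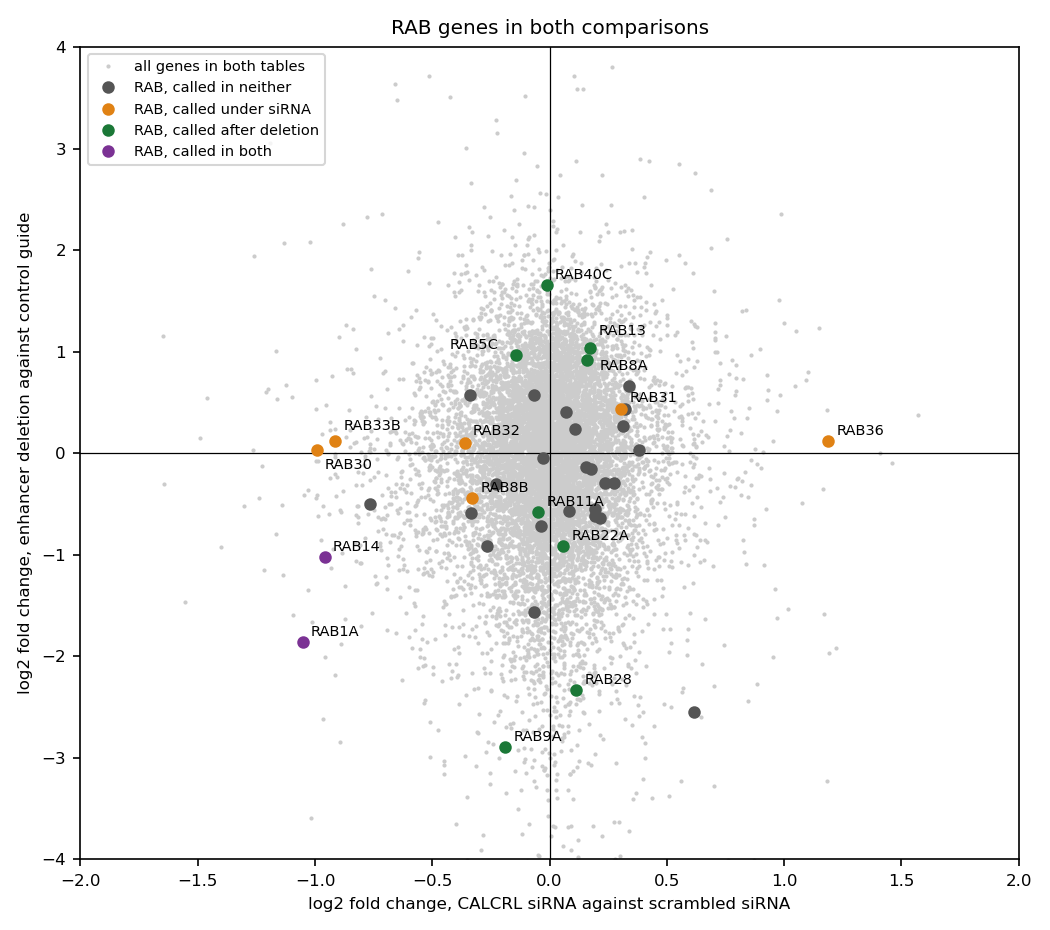
Each gene in both tables (grey dots) is plotted by its log2 fold change under CALCRL siRNA (x axis) and after the enhancer deletion (y axis), with RAB genes as large points coloured by where they were called. RAB1A and RAB14 (purple) lie at the lower left, and RAB9A and RAB28 (green) are the lowest called members on the y axis; 55 of 10894 genes lie outside the axes.

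The genes that act on RAB proteins were described with a list of 157 exchange factors, GTPase-activating proteins, escort and prenylation proteins and effectors, of which 141 had a row. Under siRNA 4 of 140 were called (2.86%, against 3.46% of all genes), 2 in each direction. EEA1, the tether that RAB5 recruits to early endosomes, rose (0.43, SE 0.10, adjusted p-value 0.000951, by the authors' deposited table), as did RILPL2, an effector of phosphorylated RAB8 and RAB10 (0.62, SE 0.18, adjusted p-value 0.0180). ANKFY1, a RAB5 effector, fell (-0.69, SE 0.14, adjusted p-value 0.000160, by the authors' deposited table). CHM, the escort protein that presents new RAB proteins for prenylation, fell too (-0.47, SE 0.13, adjusted p-value 0.0146). Both that fell carry GTAACAA in the 3' UTR, and EEA1 and RILPL2 do not. MICAL1 was next at 0.45, with an adjusted p-value of 0.104 in the authors' deposited table.

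After the deletion 25 of 139 regulators were called (18.0%, against 15.8% of all genes), 14 higher and 11 lower, and the median log2 fold change was 0.16. With the GC trend removed the count was 14 of 138, 5 higher and 9 lower, where 12.2% of all genes were called. The 5 with the lowest adjusted p-values in the authors' deposited table were CCZ1B (-2.60, SE 0.55), an exchange factor subunit for RAB7, TBC1D15 (-1.34, SE 0.33), which deactivates RAB7, RGP1 (-2.12, SE 0.54), an exchange factor subunit for RAB6, KIF20A (-1.79, SE 0.47), a kinesin that binds RAB6, and RILP (1.70, SE 0.45), the effector that links RAB7 to dynein. CCZ1B has a near-identical copy, CCZ1 (-2.44, SE 0.70, by the authors' deposited table), and reads of the copies may not be separable. Under siRNA, RGP1 had a SE 2.53 times that of other genes of its mean count, and KIF20A is a gene of mitosis. Between the arms 19 of the 138 regulators in both tables differed, where 13.7% of all genes did, and 0 were called in both, where 0.432% of all genes were.

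Sequence sharing limits some of these values. All 415 windows of 86 bases at the transcript end of RAB4B were also found in its annotated read-through transcripts, and 122 of those of RAB8A in HSH2D, 56 of RAB6A in RAB6C or RAB6D and 25 of RAB4A in SPHAR. For the other 37 members 0 windows were shared with another gene of GENCODE release 29, so that RAB1A and RAB1B were separable at this length. On the same strand, annotated genes overlap the ends of RAB5C (AC099811.2), RAB8A (HSH2D), RAB13 (AL358472.6) and RAB40C (WFIKKN1), which rose after the deletion. The end of RAB30 is overlapped likewise (AP000893.2). So are the ends of RAB3D (AC011472.2), RAB4A (SPHAR) and RAB4B (MIA-RAB4B and RAB4B-EGLN2), which were called in neither arm. The share of all genes with such an overlap was not computed. No values were found for the same-strand partners of the called members, and the part of any partner in the counts was not tested. The end of RAB1A overlaps CEP68 on the other strand, and whether counting used the strand is not given in the sources used here. CEP68 was at -0.13 (SE 0.16) under siRNA and -0.15 (SE 0.37) after the deletion, by the authors' deposited tables, with 106 and 93.0 mean normalised counts against 702 and 830 for RAB1A.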

How the data were processed

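RNA of 14 libraries was made into 3' mRNA-seq libraries (QuantSeq FWD) and read for 86 cycles, per the labels' protocols. Counting used featureCounts, and the authors made their comparisons with DESeq2, per the file names and the file headers; the submitters' processing notes name hg19 and edgeR 3.24.3 without a role. The authors' deposited tables hold mean normalised counts, log2 fold changes, SEs, a Wald statistic (a score), p-values and adjusted p-values, with decimal commas. The Wald statistic equalled fold change over SE and the adjustment was Benjamini-Hochberg over each table. Depth per library is unknown, and SEs give the precision. Planned fits on counts, a replicate block and leaving out replicates need values per library and were not run.

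Computed here (Python 3.11.15, scipy 1.17.1, statsmodels 0.14.6) were 95% intervals (normal quantile times SE), group means, differences between arms (normal reference, two-sided, Benjamini-Hochberg over 10891 genes), and alternatives: Student t reference, robust scaling, centring, count minimums of 10 and 50, removal of a GC trend (lowess, span 0.3, last 500 bases), leaving out genes with a siRNA SE over 2 times that expected at their mean, and a threshold of 0.01. Calculations were tested on simulated data. GENCODE release 29 (GRCh38) matched 11974 of 12202 genes by ID; it is not the authors' build, and the tables hold no coordinates. No protein sequence was used.

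The members, gene lists and roles were chosen with earlier results of these data known. Named were RAB1A and RAB1B, called members and their close copies, the 5 most abundant members, those differing between arms, the 3 largest changes not called, those next to the threshold, and of the regulators those called in both arms and the 5 of lowest adjusted p-value per arm. CDH5, KDR, KRT18, CCZ1, CEP68, the word's other carriers and further members named to complete a group were chosen after their values were seen.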

Additional observations from a re-analysis of the deposited data

Results flagged for a closer look

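The change of 7 RAB genes differed between the siRNA and deletion arms by the test of the difference, given as siRNA minus deletion log2 fold change. It was 3.17 for RAB6B, 2.71 for RAB9A, 2.45 for RAB28, 0.97 for RAB22A and 0.86 for RAB10. It was -1.67 for RAB40C and -0.91 for RAB5A. The adjusted p-values, over 10891 genes, ran from 0.00268 (RAB9A) to 0.0394 (RAB40C). RAB6B had a mean of 16.4 and 15.2 normalised counts in the arms, the lowest of the 7.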

How the results depend on the processing

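No paired analysis was possible because single libraries have no values here, and leaving out replicates and the count models could not be run for the same reason. Against a Student t reference, 0 RAB genes were called under siRNA (12 at an unadjusted p-value under 0.05), 0 after the deletion (10) and 0 differed between arms (7); for the regulators the counts were 0 under siRNA (5) and 0 after the deletion (22). Over all genes, 5, 0 and 0 were then called under siRNA, after the deletion and between arms. With the statistics divided by their robust SD, 5 RAB genes were called under siRNA, 0 after the deletion (2 at an unadjusted p-value under 0.05) and 0 differed (1), with 2 regulators under siRNA and 0 after the deletion (7); over all genes, 262 were called under siRNA, 0 after the deletion and 0 between arms. The 5 were RAB1A, RAB14, RAB33B, RAB32 and RAB36. At an adjusted p-value under 0.01 the counts were 4 under siRNA (RAB1A, RAB14, RAB33B and RAB36), 4 after the deletion (RAB1A, RAB9A, RAB22A and RAB28), 3 between arms, and 2 of 140 and 12 of 139 for the regulators. Of all genes, 2.16% were then called under siRNA and 6.64% after the deletion, and 539 of 10891 differed between arms. Removal of the GC trend left 14 of 138 regulators called after the deletion, where 12.2% of all genes were. With it RAB8B and RAB30 were no longer called under siRNA (adjusted p-values 0.0658 and 0.0596). It also turned the sign of 5 RAB genes not called after the deletion, to 0.13 for RAB3B, -0.37 for RAB4B, -0.11 for RAB11B, 0.16 for RAB12 and -0.29 for RAB36. Centring and both count minimums brought RAB21 under the deletion threshold (0.0493, 0.0479 and 0.0403). Over the alternatives the adjusted p-value of RAB1A ran from 2.64e-08 to 0.169 under siRNA and from 0.000744 to 0.976 after the deletion. CALCRL itself lost its call against the Student t reference in both arms (0.102 under siRNA, 0.357 after the deletion). After the deletion it also lost it with robust scaling (0.976) and with the GC trend removed (0.0827). The cause of these losses was not tested.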
